A study of Arabidopsis thaliana with 9 samples.

Results

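In roots of Arabidopsis thaliana seedlings, 124 genes were reduced to at most 0.5 of their wild-type level in both of the ERF13 lines that were sequenced. A gene was taken when its mean FPKM (fragments per kilobase of gene, scaled to the size of the library) was at least 1 in WT, when the mean of each line was at most 0.5 of the WT mean, and when every library of both lines lay below every WT library. Of 24140 genes listed in any library, 130 met all of these conditions. MRN1, CYP71A16, LTI65, RAB18, NHL10 and TIP2;2 were left out, which gave the 124 genes described here. Because the genes were chosen on these values, their differences from WT are a description and carry no test.

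Roots of 9-day-old seedlings grown on diluted MS medium were compared between 3 genotypes with 3 libraries each. The genotype titled erf13-3 is called an SRDX line of ERF13 by its genotype label, the authors' deposited table calls it E13SRDX, and the series text gives its name without the 1 of ERF13. The domain called SRDX makes a repressor of a transcription factor it is fused to. The genotype label and the authors' table both name SRDX, the title does not, and how the line was made is not settled by the labels. 35S:ERF13:MYC carries MYC-tagged ERF13 under the constitutive 35S promoter, and WT is the wild type. The labels do not give the number of transformants behind each line, and they do not say whether replicate libraries stand for separate plants or growth batches. The p-values below therefore measure only how far these libraries differ, part of which may be technical.

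ERF13 is a member of the ethylene response factor family, whose proteins bind DNA through an AP2 domain and whose typical recognition element is the GCC box. Several other responses are well known in roots. Low phosphate induces SPX proteins, phosphate transporters and lipid-remodelling enzymes through PHR1, a factor that binds the P1BS element. Abscisic acid and water deficit induce dehydrins and other late embryogenesis abundant proteins, largely through bZIP factors that bind the ABRE element. Roots also make triterpenes from small gene clusters, and they take up water through aquaporins of the plasma membrane and the vacuole.

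ERF13 itself was listed at 2595, 2711 and 3043 FPKM in the erf13-3 libraries and at 905, 789 and 773 FPKM in the 35S:ERF13:MYC libraries, against 1.03, 0.96 and 1.25 FPKM in the WT libraries. ERF13 transcript was thus far above WT in every library of both lines, the one titled as a mutant included. Library totals ran from 12147128 to 12324144 expected counts. Across the 18295 genes with a WT mean of at least 1 FPKM, the median level was 110% of WT in erf13-3 and 109% in 35S:ERF13:MYC, shifts of 0.14 and 0.12 on the log2 scale that fell to 0.00 and 0.01 after TMM scaling. The condition of 0.5 was applied to FPKM as deposited, and on TMM-scaled FPKM it was met by 161 genes, all 124 among them. Of the 18295 genes, 3.51% met the conditions of ratio and overlap for erf13-3, 4.12% for 35S:ERF13:MYC and 0.711% for both, which is fixed by the choice. The lines were compared with the same WT libraries, so their joint shortfall is not independent evidence. All 124 genes are also listed as lower in the authors' deposited table for each line, which holds 1656 genes for erf13-3 (40.3% of them lower) and 1305 for 35S:ERF13:MYC (59.6% lower). Those tables compare the same libraries, so this listing follows from the choice and supports nothing.

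Root markers were abundant in every library, the 5 genes of that list summing to 8939 to 9815 FPKM in erf13-3 and 12129 to 13657 FPKM in 35S:ERF13:MYC, against 12730 to 15182 FPKM in WT. No gene of any marker list for root cell types or green tissue was among the 124. Summed FPKM of the 7 green-tissue genes was 526 to 595 in erf13-3 and 86.9 to 138 in 35S:ERF13:MYC, against 237 to 274 in WT. In edgeR's quasi-likelihood test, adjusted over 19714 genes, 6 of these genes were higher in erf13-3 than in WT and none lower, while 5 were lower in 35S:ERF13:MYC and none higher. Of 11 endodermis genes, 7 were higher in erf13-3 and none lower, and 10 were lower in 35S:ERF13:MYC and none higher, with summed levels of 1166 to 1346 and 524 to 544 FPKM, against 784 to 1007 FPKM in WT. Of 12 root-hair genes, 3 were higher and 1 lower in erf13-3, while none was higher and 8 were lower in 35S:ERF13:MYC. Over all genes tested, 13.6% were called higher and 13.7% lower in erf13-3, and 13.8% higher and 17.7% lower in 35S:ERF13:MYC. Of 6 xylem genes, 4 were lower in erf13-3 and 3 lower in 35S:ERF13:MYC, with none higher in either line, and their summed levels were 264 to 277 FPKM in erf13-3 and 264 to 279 FPKM in 35S:ERF13:MYC, against 278 to 324 FPKM in WT. Of the 5 root genes, 1 was higher and 2 lower in erf13-3, and none was higher and 3 were lower in 35S:ERF13:MYC. Of 3 phloem genes, 2 were lower in erf13-3, and of 4 root cap genes 2 were lower in erf13-3 and 1 was higher in 35S:ERF13:MYC. Of 2 cortex genes, both were higher in erf13-3 and 1 was lower in 35S:ERF13:MYC, and of 2 genes of the hairless epidermis 1 was higher in erf13-3. The part of cell-type makeup in the levels of the 124 genes was not tested. In bulk roots, fewer cells of a type and less RNA per cell cannot be told apart.

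The 124 genes took 0.179%, 0.176% and 0.2% of all counts in the erf13-3 libraries and 0.17%, 0.163% and 0.18% in the 35S:ERF13:MYC libraries, against 0.463%, 0.499% and 0.579% in the WT libraries. Their median residual level was 30.1% of WT in erf13-3 and 30.7% in 35S:ERF13:MYC. In erf13-3, 33 of the genes stood at 20% of WT or less and 9 at 10% or less. In 35S:ERF13:MYC, 34 stood at 20% or less and 17 at 10% or less. The genes were sorted into role groups, not by annotated product alone. Of them, 8 were placed in the phosphate starvation response and 8 in abscisic acid and desiccation. Another 13 code for transcription factors or a VQ protein, 16 for transporters and channels, and 4 for a triterpene synthase and cytochrome P450s. Cell wall and secreted proteins are coded by 19, signalling proteins by 11 and other enzymes by 14. The remaining 31 have another or an uncharacterised product. These role groups were drawn up after the values were seen and serve only to order the description.

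**Figure D1:**
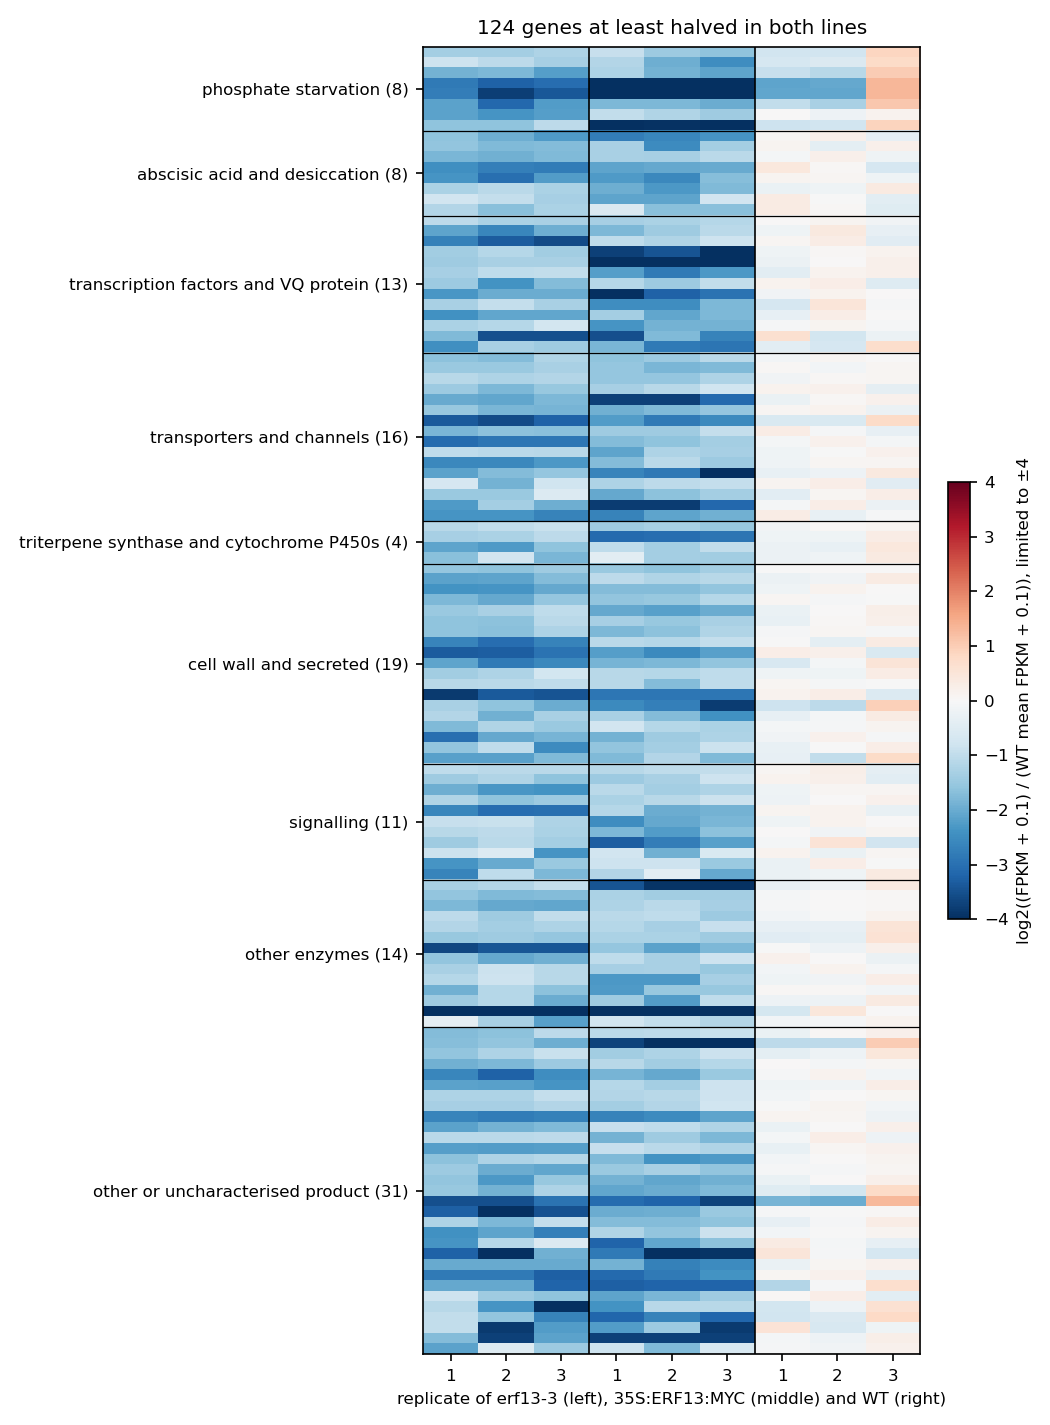
Level of each of the 124 genes (rows, grouped by role, with the number of genes in parentheses) in each of 9 libraries (columns: erf13-3, 35S:ERF13:MYC and WT, replicates 1 to 3), as log2 of FPKM + 0.1 over the WT mean + 0.1, with colours limited to ±4. Both lines lie on the blue side, as the choice of genes requires, and the WT replicate 3 column is red for most phosphate starvation genes.

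The 8 genes of this group stood at a median of 22% of WT in erf13-3 and 27.4% in 35S:ERF13:MYC. They include SPX1 and SPX3, which sense inositol phosphates and restrain PHR1, the pyrophosphatase PS2, the lipid-remodelling galactolipid synthase MGDC, the phosphatase PEPC1, the glycerophosphodiesterase SRG3, the purple acid phosphatase PAP3 and the phosphate transporter PHT1;8. The upstream sequences of SPX3, PS2 and SRG3 are shown because they hold the P1BS element, GNATATNC, within 250 bases of the annotated gene start. The matches are in capitals. The windows are from the RefSeq genome TAIR10.1, 5′ to 3′ on the strand of the gene, at chr2:18606160-18606409, plus strand for SPX3, chr1:27466349-27466598, minus strand for PS2 and chr3:350011-350260, minus strand for SRG3.
SPX3: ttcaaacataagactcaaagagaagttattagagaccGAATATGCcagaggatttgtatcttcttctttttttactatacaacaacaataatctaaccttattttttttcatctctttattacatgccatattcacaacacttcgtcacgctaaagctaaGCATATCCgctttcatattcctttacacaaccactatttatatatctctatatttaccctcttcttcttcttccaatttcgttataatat
PS2: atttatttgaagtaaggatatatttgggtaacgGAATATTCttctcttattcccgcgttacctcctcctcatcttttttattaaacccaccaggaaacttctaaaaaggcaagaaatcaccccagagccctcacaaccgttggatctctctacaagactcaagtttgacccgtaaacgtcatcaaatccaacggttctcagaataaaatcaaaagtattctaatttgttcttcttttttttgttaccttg
SRG3: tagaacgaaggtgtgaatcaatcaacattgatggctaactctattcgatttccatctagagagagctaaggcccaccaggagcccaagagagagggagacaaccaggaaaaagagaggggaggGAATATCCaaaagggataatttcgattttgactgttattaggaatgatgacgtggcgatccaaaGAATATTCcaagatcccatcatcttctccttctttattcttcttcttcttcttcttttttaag

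P1BS was present in the windows of 3 of these 8 genes, of 17 of the 124 genes (13.7%) and of 1498 of 27443 protein-coding genes (5.46%), searched on both strands with N as any base. Among the 17, AT1G63055 and AT1G63057 share their gene start, so the same window is counted for both. A match describes letters in a window and is not a tested site.

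SPX3 had 1.73, 0.82 and 1.09 FPKM in erf13-3 and 0.54, 0.55 and 0.54 FPKM in 35S:ERF13:MYC, against 2.88, 2.88 and 31.3 FPKM in WT. PS2 had 9.96, 10.4 and 7.95 FPKM in erf13-3 and 15.7, 9.80 and 8.39 FPKM in 35S:ERF13:MYC, against 19.6, 17.1 and 73.7 FPKM in WT. SRG3, the most abundant of the group, had 43.3, 43.5 and 47.5 FPKM in erf13-3 and 58.6, 41.2 and 36.5 FPKM in 35S:ERF13:MYC, against 66.0, 65.9 and 204 FPKM in WT. For all of these, WT replicate 3 stood far above WT replicates 1 and 2, while the lines lay below every WT library, as the choice requires. SPX1 showed the same picture, with 40.2, 34.4 and 28.1 FPKM in erf13-3 and 31.6, 18.4 and 12.7 FPKM in 35S:ERF13:MYC, against 44.7, 47.5 and 121 FPKM in WT. PEPC1 had 2.31, 1.74 and 1.96 FPKM in erf13-3 and 0.33, 0 and 0.14 FPKM in 35S:ERF13:MYC, against 3.85, 4.10 and 43.4 FPKM in WT. WT replicate 3 was thus 10.9 times the mean of the other WT libraries for PEPC1 and SPX3.

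**Figure D2:**
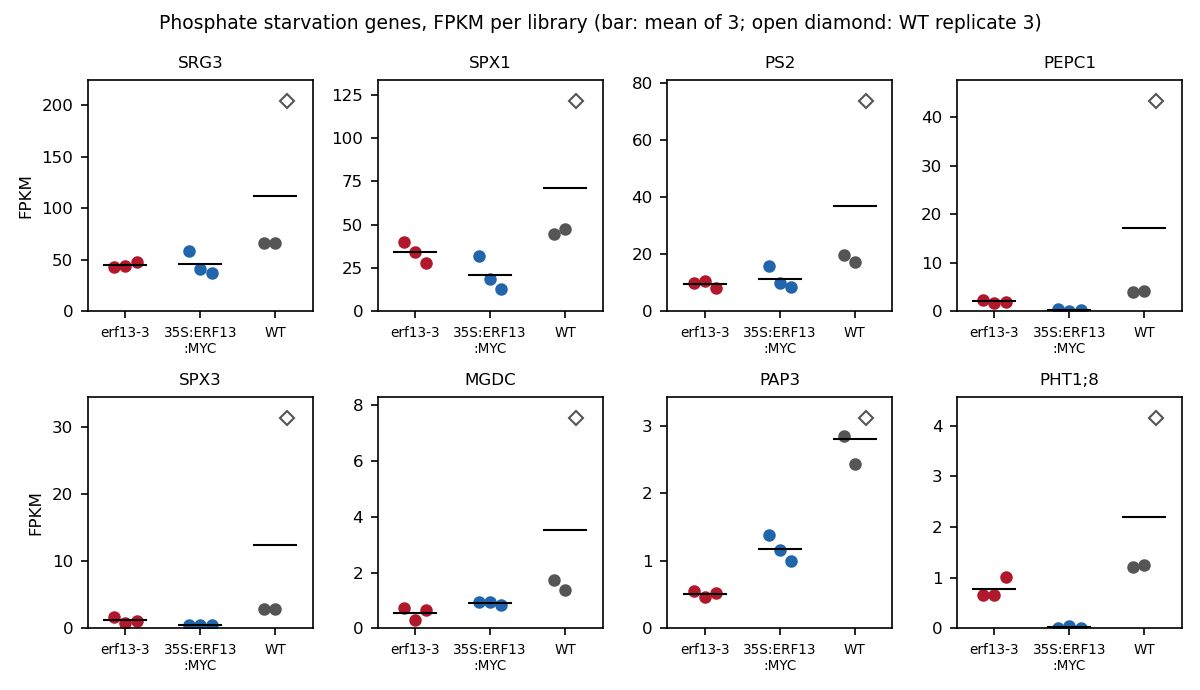
FPKM of the 8 phosphate starvation genes in erf13-3 (red), 35S:ERF13:MYC (blue) and WT (grey), 1 point per library on a linear axis, with a bar at the mean of 3 and WT replicate 3 as an open diamond. In every panel except PAP3 the diamond lies at least 2 times above the mean of the other WT points.

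Without WT replicate 3, SPX3 and PAP3 still met the conditions and the other 6 did not, SPX1 standing at 0.742 of the WT mean in erf13-3 and 0.453 in 35S:ERF13:MYC, and SRG3 at 0.679 and 0.689. SPX3 then stood at 0.421 of the WT mean in erf13-3 and 0.189 in 35S:ERF13:MYC. PAP3 was the exception in WT, with 0.55, 0.46 and 0.53 FPKM in erf13-3 and 1.38, 1.16 and 0.99 FPKM in 35S:ERF13:MYC, against 2.85, 2.43 and 3.11 FPKM in WT. Its WT libraries were alike, and the lines did not overlap each other. That both lay below every WT library is fixed by the choice. PHT1;8 had only 1 count over the 35S:ERF13:MYC libraries, against 48 in erf13-3 and 140 in WT, a ratio of 48.2 of erf13-3 over 35S:ERF13:MYC (exact 95% interval 8.24 to 1941, counting error only).

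Of the phosphate starvation genes on a fixed list of 15, 6 were among the 124. The other 9 were all tested against WT by edgeR's quasi-likelihood test. In erf13-3, 1 was called higher and 3 lower, against 13.6% and 13.7% of all genes tested. In 35S:ERF13:MYC, none was called higher and 8 were called lower, against 13.8% and 17.7% of all genes. The ribonuclease RNS1 was the gene called higher in erf13-3, at 3.52 ± 1.2 FPKM in erf13-3 and 0.59 ± 0.195 FPKM in 35S:ERF13:MYC, against 1.56 ± 0.626 FPKM in WT (SD, n = 3 each, adjusted p = 0.044 for erf13-3 and 0.029 for 35S:ERF13:MYC, edgeR). The high-affinity transporter PHT1;1 averaged 341 ± 65.5 FPKM in erf13-3 and 84.3 ± 7.33 FPKM in 35S:ERF13:MYC, against 221 ± 100 FPKM in WT, and was lower in 35S:ERF13:MYC (edgeR log2 fold change -1.53, SE 0.28, adjusted p = 0.0015). Reads of PHT1;1 can be shared with its close copy PHT1;2. Over the whole list, 9 genes were called lower in erf13-3 and 14 in 35S:ERF13:MYC. The number called higher in erf13-3 was 3 without WT replicate 3, 1 without erf13-3 replicate 1 or 35S:ERF13:MYC replicate 1, and 0 without each other library. Without WT replicate 3 these counts were 7 and 12, and without erf13-3 replicate 1 or 2 the count for erf13-3 was 5 or 4. Without 35S:ERF13:MYC replicate 2 or replicate 3, the count for 35S:ERF13:MYC was 9.

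The library WT replicate 3 touched more than the phosphate group. It held the highest WT value for 72 of the 124 genes (58.1%), compared with 30% of all genes with a WT mean of at least 1 FPKM. Its value was at least 2 times the mean of the other WT libraries for 18 of the 124 genes (14.5%), compared with 0.82% of those genes. Of the 18, 7 belong to the phosphate starvation group. The choice used the WT mean, so a gene with 1 high WT library met the limit of the ratio more easily. Both shares of the 124 genes are therefore not independent of the choice, and how far it raised them was not tested. Without it, 91 of the 124 genes still met the conditions and 14 further genes met them only then, 105 in all. Of the 33 genes that no longer met them, 29 had a ratio above 0.5 and 4 a WT mean under 1 FPKM. The uncharacterised gene AT3G25240 had 0.52, 0.51 and 0.81 FPKM in erf13-3 and 0.73, 0.67 and 0.44 FPKM in 35S:ERF13:MYC, against 1.82, 1.68 and 17.3 FPKM in WT. It still met the conditions without WT replicate 3, at 0.35 of the WT mean in either line. No label sets that library apart, and the source of its higher values was not tested.

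**Figure D3:**
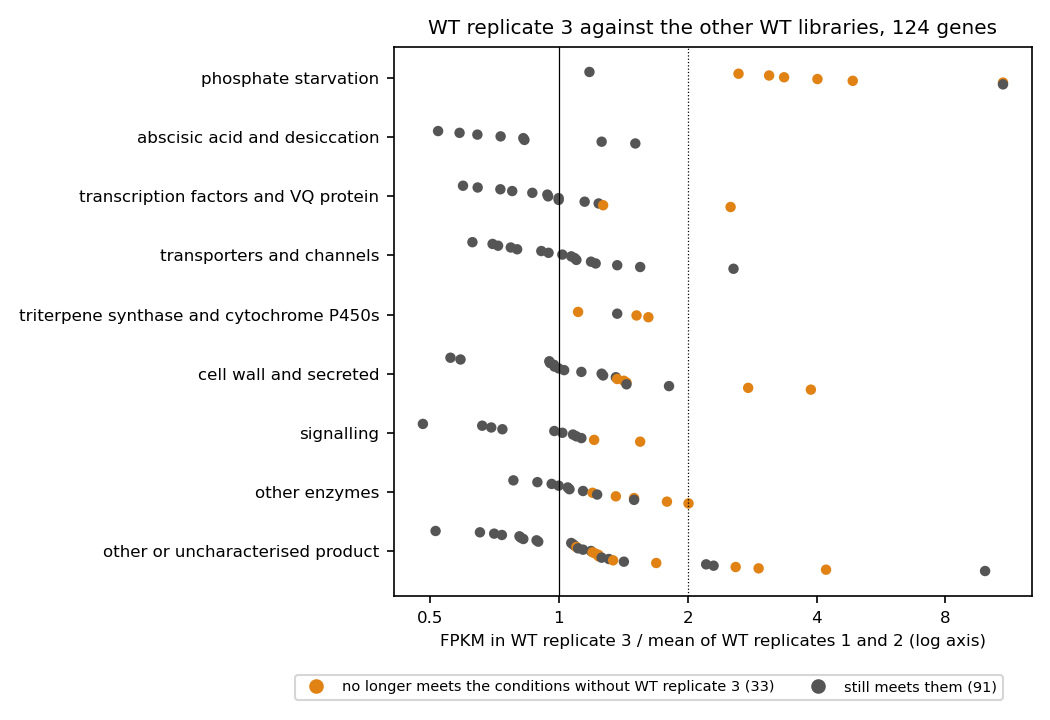
FPKM in WT replicate 3 over the mean of WT replicates 1 and 2 (log axis) for each of the 124 genes, by role, with a solid line at 1 and a dotted line at 2. Orange points are the 33 genes that no longer meet the conditions without that library, and 7 of 8 phosphate starvation genes lie right of the dotted line while no abscisic acid and desiccation gene does.

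The 8 abscisic acid and desiccation genes did not depend on that library. All 8 met the conditions without it, and the median of WT replicate 3 over the other WT libraries was 0.78. The group stood at a median of 29.1% of WT in erf13-3 and 26.9% in 35S:ERF13:MYC. It holds the dehydrin XERO1, the late embryogenesis abundant proteins LEA7 and AT3G02480, the seed maturation protein AT2G21820, the membrane protein TSPO, the phosphatases HAI3 and AT3G05640 of the PP2C family, and NCED9, which makes an abscisic acid precursor. The upstream windows of XERO1, LEA7 and AT3G02480 are shown because they hold the ABRE core, ACGTG, which is in capitals on either strand. Capital runs of CACGTG are palindromes that hold the core on both strands. The windows lie, in TAIR10.1, at chr3:18941675-18941924, plus strand for XERO1, chr1:19619474-19619723, plus strand for LEA7 and chr3:511970-512219, plus strand for AT3G02480.
XERO1: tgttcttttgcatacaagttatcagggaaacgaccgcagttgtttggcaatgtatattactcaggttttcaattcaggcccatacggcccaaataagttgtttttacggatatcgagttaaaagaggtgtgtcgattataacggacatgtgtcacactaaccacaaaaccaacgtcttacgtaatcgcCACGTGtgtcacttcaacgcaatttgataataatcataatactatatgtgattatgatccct
LEA7: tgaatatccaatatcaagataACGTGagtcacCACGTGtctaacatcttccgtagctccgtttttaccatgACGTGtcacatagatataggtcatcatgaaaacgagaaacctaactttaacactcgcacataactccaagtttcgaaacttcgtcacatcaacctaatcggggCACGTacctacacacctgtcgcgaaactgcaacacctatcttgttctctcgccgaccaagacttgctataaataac
AT3G02480: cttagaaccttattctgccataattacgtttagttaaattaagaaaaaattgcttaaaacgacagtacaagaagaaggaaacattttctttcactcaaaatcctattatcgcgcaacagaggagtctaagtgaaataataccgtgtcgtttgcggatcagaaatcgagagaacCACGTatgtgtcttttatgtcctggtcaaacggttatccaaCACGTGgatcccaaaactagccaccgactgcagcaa

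The ABRE core was present in the windows of 6 of the 8 genes of this group. Over all 124 genes it was present in 51 (41.1%), compared with 22.9% of 27443 protein-coding genes and 23.9% of those with a WT mean of at least 1 FPKM. LEA7 held 4 separate runs of it between 229 and 76 bases before the gene start. The DRE core, ACCGAC or GCCGAC, was present in 16 windows (12.9%, compared with 7.09% of all genes), and the W-box core, TTGAC, in 54 (43.5%, compared with 44.9%). The GCC box, AGCCGCC, was present in none of the 124 windows and in 0.587% of all genes. None of these shares was tested, and 13 of the 124 windows run into a neighbouring gene.

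XERO1 had 6.38, 4.93 and 4.02 FPKM in erf13-3 and 2.81, 3.08 and 3.75 FPKM in 35S:ERF13:MYC, against 20.5, 22.3 and 15.7 FPKM in WT. LEA7 had 2.22, 1.81 and 1.72 FPKM in erf13-3 and 2.81, 2.94 and 3.01 FPKM in 35S:ERF13:MYC, against 16.8, 13.1 and 7.80 FPKM in WT. TSPO had 1.67, 1.03 and 1.83 FPKM in erf13-3 and 1.82, 1.44 and 2.69 FPKM in 35S:ERF13:MYC, against 9.74, 9.51 and 7.96 FPKM in WT. For each of them the lowest WT library was replicate 3. It was above the highest library of either line, as the choice requires. HAI3 and NCED9 were near the lower limit of the choice, with WT means of 1.27 and 1.04 FPKM. HAI3 had 0.71, 0.60 and 0.44 FPKM in erf13-3 and 0.22, 0.22 and 0.71 FPKM in 35S:ERF13:MYC, against 1.63, 1.25 and 0.93 FPKM in WT. NCED9 stood at 33.5% of WT in erf13-3 and 38% in 35S:ERF13:MYC.

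**Figure D4:**
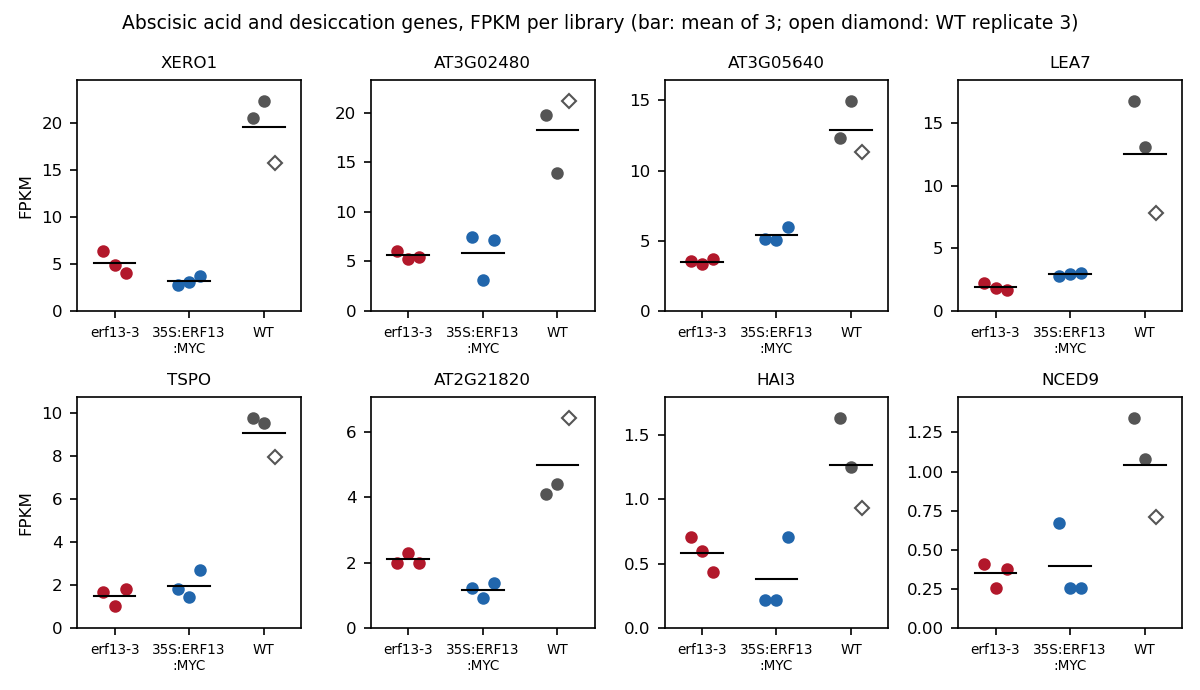
FPKM of the 8 abscisic acid and desiccation genes in erf13-3 (red), 35S:ERF13:MYC (blue) and WT (grey), 1 point per library on a linear axis, with a bar at the mean of 3 and WT replicate 3 as an open diamond. WT replicate 3 lies below the mean of the other WT libraries in 6 of the 8 panels, the exceptions being AT3G02480 and AT2G21820.

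A fixed list of 21 abscisic acid, desiccation and cold genes held HAI3 from the 124 and, among those left out, LTI65 and RAB18. Of the other 17 that could be tested, 15 were called lower and none higher in erf13-3 by edgeR's quasi-likelihood test, against 13.7% and 13.6% of all genes tested. In 35S:ERF13:MYC, 8 of them were called lower and none higher, against 17.7% and 13.8% of all genes. The lists were chosen with earlier results of these data known. Among these genes, the phosphatase HAI1 averaged 16.4 ± 0.483 FPKM in erf13-3 and 24.9 ± 6.46 FPKM in 35S:ERF13:MYC, against 47.3 ± 4.96 FPKM in WT (SD, n = 3 each). It fell by 1.66 on the log2 scale in erf13-3 (SE 0.14, edgeR adjusted p = 5.6e-06) and fell by 1.04 in 35S:ERF13:MYC (SE 0.14, adjusted p = 0.00018). NCED3, the main stress-induced enzyme of abscisic acid synthesis, averaged 6.06 ± 0.801 FPKM in erf13-3 and 4.19 ± 0.332 FPKM in 35S:ERF13:MYC, against 9.86 ± 1.73 FPKM in WT, and fell in both (edgeR adjusted p = 0.0012 and 5e-05). The dehydrin LTI30 averaged 53.6 ± 7.6 FPKM in erf13-3 and 146 ± 27.4 FPKM in 35S:ERF13:MYC, against 190 ± 31.3 FPKM in WT.

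The 2 lines were also set against each other with a test. The choice of genes did not use the difference between the lines, but it used the same libraries. It limited the mean of each line and required every library of both lines to lie below every WT library. The test is therefore not independent of the choice. How far these conditions shaped the shares and sizes of difference given here was not tested. Of the 124 genes, 116 had enough counts, and 48 of these (41.4%) differed between erf13-3 and 35S:ERF13:MYC at an adjusted p under 0.05 in edgeR's quasi-likelihood test, while 38.7% of all 19714 genes tested did. Their share is therefore close to that of all genes. Every erf13-3 library lay above every 35S:ERF13:MYC library for 28 of the 124 genes, while the same held for 29.8% of genes with a WT mean of at least 1 FPKM, and below for 31, while the share of those genes was 23.2%. Of the 48, 21 were higher in erf13-3 (18.1%, against 21.1% of all genes) and 27 were lower (23.3%, against 17.6%). The median size of the log2 fold change was 0.64 for the 116 genes and 0.28 for all genes, and their median signed value was -0.09, against -0.02. The 8 genes with too few counts to test were AT2G25215, AT2G04137, FLP1, bZIP48, AT1G18193, AT1G70720, AT1G22290 and AT2G22750.

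**Figure D5:**
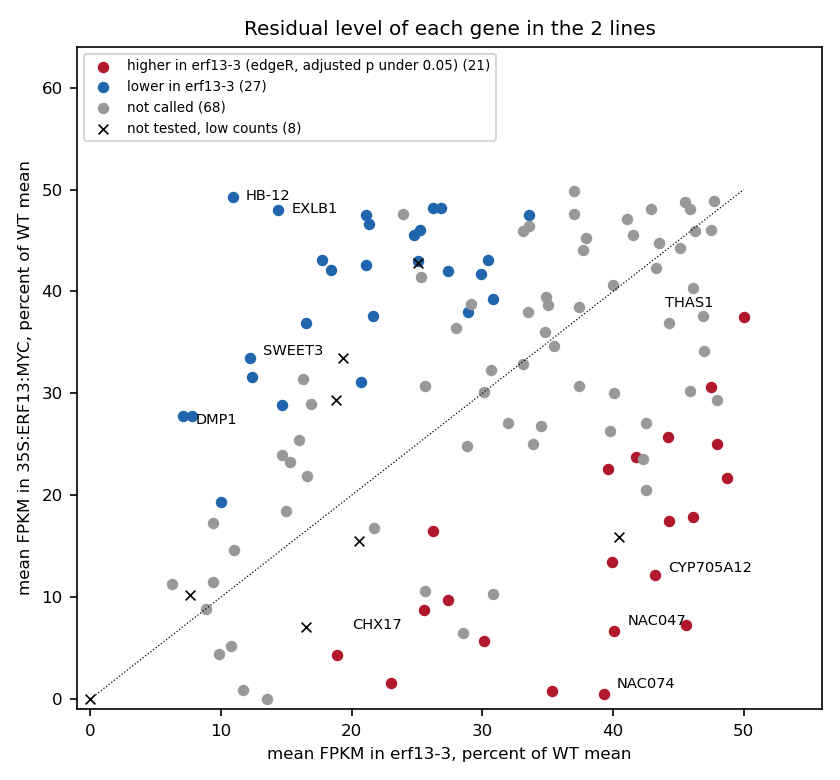
Mean FPKM in erf13-3 (x axis) and in 35S:ERF13:MYC (y axis), each as percent of the WT mean, for the 124 genes on linear axes, with the dotted line marking equal levels. Red points were called higher in erf13-3 than in 35S:ERF13:MYC (21 genes), blue points lower (27 genes), grey points were not called (68 genes) and crosses were not tested (8 genes).

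Among transcription factors, some genes kept more of their level in erf13-3 and others in 35S:ERF13:MYC. NAC074 and NAC047 belong to the NAC family of plant transcription factors. NAC074 had 4.53, 4.91 and 4.95 FPKM in erf13-3 and 0, 0.06 and 0.12 FPKM in 35S:ERF13:MYC, against 10.3, 12.3 and 14.0 FPKM in WT. NAC047 had 4.87, 5.79 and 4.87 FPKM in erf13-3 and 0.88, 1.1 and 0.61 FPKM in 35S:ERF13:MYC, against 11.4, 13.2 and 14.1 FPKM in WT. The lines did not overlap each other for either gene, with erf13-3 the higher of them and NAC074 nearly undetected in 35S:ERF13:MYC. Their place below WT is fixed by the choice. NAC074 rested there on 3 counts in all, against 280 in erf13-3 and 714 in WT, a ratio of 93.6 of erf13-3 over 35S:ERF13:MYC (exact 95% interval 31.7 to 457, counting error only, edgeR adjusted p = 2.5e-07). NAC047 was higher in erf13-3 by 2.56 on the log2 scale (SE 0.22, edgeR adjusted p = 2e-06).

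HB-12, a homeodomain-leucine zipper factor induced by abscisic acid, had the opposite order. It had 4.18, 2.66 and 2.21 FPKM in erf13-3 and 13.5, 11.9 and 15.5 FPKM in 35S:ERF13:MYC, against 29.0, 33.7 and 20.3 FPKM in WT. It was lower in erf13-3 than in 35S:ERF13:MYC, with an edgeR log2 fold change of -2.20 (adjusted p = 9.8e-06, SE 0.23), and its libraries did not overlap between the lines. WRKY75, known for its part in phosphate starvation and senescence, had 7.25, 5.05 and 7.99 FPKM in erf13-3 and 8.94, 11.5 and 14.8 FPKM in 35S:ERF13:MYC, against 27.7, 41.0 and 25.2 FPKM in WT. Its difference between the lines (log2 fold change -0.82, SE 0.25, edgeR adjusted p = 0.022) lost its call without erf13-3 replicate 2 (adjusted p = 0.082) and without 35S:ERF13:MYC replicate 2 (0.051) or replicate 3 (0.098). RAP2.6, an ethylene response factor like ERF13, had 28.8, 24.9 and 24.4 FPKM in erf13-3 and 24.0, 24.8 and 27.5 FPKM in 35S:ERF13:MYC, against 61.2, 64.5 and 54.6 FPKM in WT. Its levels in the lines overlapped, with an edgeR log2 fold change of 0.01 (adjusted p = 0.95, SE 0.09).

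The other factors of the group were weakly expressed in WT, with means of at most 9.67 FPKM. The VQ protein PDE337 had 3.83, 4.76 and 4.79 FPKM in erf13-3 and 2.01, 1.28 and 1.90 FPKM in 35S:ERF13:MYC, against 7.14, 10.6 and 11.3 FPKM in WT. SOM, a CCCH zinc-finger protein that restrains seed germination in the dark, had 0.26, 0.35 and 0.35 FPKM in erf13-3 and 0, 0.09 and 0.13 FPKM in 35S:ERF13:MYC, against 1.52, 1.87 and 1.70 FPKM in WT. MYB108 stood at 44.3% of WT in erf13-3 and 17.5% in 35S:ERF13:MYC. The senescence regulator NAP stood at 25.3% and 41.4%, and ERF53, another factor with an AP2 domain, at 14.7% and 23.9%. The bHLH gene AT2G22750 had at most 0.24 FPKM in any library of the lines and 0.59 to 1.67 FPKM in WT. By family, the 124 genes held 3 of 95 NAC genes, 2 of 118 AP2/ERF genes, 1 of 111 MYB genes and 1 of 69 WRKY genes. These totals count every family gene listed in any library, also those too weak in WT to be chosen. Over all families, 124 of 24140 listed genes were chosen, and no family share was tested.

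The 16 genes grouped as transporters and channels all met the conditions without WT replicate 3. The phosphate transporter PHT1;8, grouped with phosphate starvation instead, did not, at 0.632 of the WT mean in erf13-3. The median level of the 16 genes was 30% of WT in erf13-3 and 32.1% in 35S:ERF13:MYC. The most abundant was TIP2;3, a vacuolar aquaporin that also passes ammonia, with 90.5, 83.5 and 120 FPKM in erf13-3 and 91.3, 101 and 133 FPKM in 35S:ERF13:MYC, against 262, 296 and 283 FPKM in WT. Its levels overlapped between the lines, and every WT library was above every library of either line, as the choice requires. How the authors' counting divided reads between TIP2;3 and its close copy TIP2;2 is not given in the sources used here, so its value is uncertain. Of the other 17 aquaporins on the fixed list, 5 were called higher and 8 lower in erf13-3 (edgeR), against 13.6% and 13.7% of all genes tested. In 35S:ERF13:MYC none was called higher and 13 were called lower, against 13.8% and 17.7% of all genes. Over the whole list the number called higher in erf13-3 was 9 without WT replicate 3, 5 without erf13-3 replicate 1 or 35S:ERF13:MYC replicate 1, and 3 without each other library.

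CHX17, a cation/proton exchanger of root cells, had 15.04, 14.5 and 17.6 FPKM in erf13-3 and 4.50, 4.58 and 6.99 FPKM in 35S:ERF13:MYC, against 51.7, 63.3 and 69.8 FPKM in WT. It was higher in erf13-3 than in 35S:ERF13:MYC, with an edgeR log2 fold change of 1.53 (adjusted p = 4.3e-05, SE 0.19). Sugar transporters of the SWEET family appeared 3 times. SWEET12, which exports sucrose, had 19.0, 15.1 and 14.8 FPKM in erf13-3 and 14.3, 15.9 and 18.7 FPKM in 35S:ERF13:MYC, against 56.8, 59.2 and 46.4 FPKM in WT. SWEET3 had 1.34, 1.56 and 1.57 FPKM in erf13-3 and 3.63, 3.89 and 4.74 FPKM in 35S:ERF13:MYC, against 11.4, 13.7 and 11.5 FPKM in WT. SWEET3 was lower in erf13-3 by this comparison (edgeR log2 fold change -1.47, SE 0.19, adjusted p = 6.8e-05), whereas the lines overlapped for SWEET12. SWEET4 had 1 count in 35S:ERF13:MYC and 14 in erf13-3, against 61 in WT.

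Amino acid exporters of the UMAMIT family were represented by 2 genes. UMAMIT20 had 35.9, 28.4 and 34.5 FPKM in erf13-3 and 38.7, 45.3 and 55.8 FPKM in 35S:ERF13:MYC, against 107, 110.4 and 76.3 FPKM in WT. UMAMIT33 had 45.3, 41.4 and 43.9 FPKM in erf13-3 and 33.7, 33.3 and 41.8 FPKM in 35S:ERF13:MYC, against 88.8, 102 and 104 FPKM in WT. The lines overlapped for UMAMIT33. UMAMIT20 was lower in every erf13-3 library than in any 35S:ERF13:MYC library (adjusted p = 0.015 in edgeR, log2 difference -0.52, SE 0.15). That call was lost without erf13-3 replicate 2 (adjusted p = 0.062) or 35S:ERF13:MYC replicate 3 (0.076). The major facilitator family gene AT2G26690 had 58.6, 58.5 and 66.4 FPKM in erf13-3 and 56.2, 46.5 and 48.1 FPKM in 35S:ERF13:MYC, against 168, 151 and 171 FPKM in WT. OCT1, a carrier of carnitine and other organic cations, had 3.57, 3.01 and 3.91 FPKM in erf13-3 and 7.88, 5.18 and 6.31 FPKM in 35S:ERF13:MYC, against 24.5, 24.7 and 62.9 FPKM in WT. WT replicate 3 was again the high one for OCT1, but its lowest WT library was still above 3 times the highest library of either line. AT1G08440, of the aluminium-activated malate transporter family, was among the genes most reduced in both lines, with 0.14, 0.14 and 0.09 FPKM in erf13-3 and 0.09, 0.18 and 0.22 FPKM in 35S:ERF13:MYC, against 1.39, 0.89 and 1.08 FPKM in WT. The molybdate carrier MOT1 stood at 47% of WT in erf13-3 and 34.2% in 35S:ERF13:MYC.

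Of the genes on the fixed list of root triterpene clusters, THAS1 and CYP705A12 were among the 124. THAS1, which cyclises oxidosqualene to thalianol, had 113, 124 and 131 FPKM in erf13-3 and 92.4, 98.1 and 85.5 FPKM in 35S:ERF13:MYC, against 221, 253 and 262 FPKM in WT. It lay at the edge of the choice, at 49.98% of the WT mean in erf13-3, and without WT replicate 3 it was at 0.518. CYP705A12 had 36.1, 38.1 and 43.5 FPKM in erf13-3 and 10.4, 10.9 and 11.9 FPKM in 35S:ERF13:MYC, against 80.6, 81.4 and 111 FPKM in WT. The lines did not overlap each other for either gene. Both were higher in erf13-3 than in 35S:ERF13:MYC. The log2 difference in edgeR was 1.81 for CYP705A12 (SE 0.16, adjusted p = 3.4e-06) and 0.39 for THAS1 (SE 0.11, adjusted p = 0.016), and the call for THAS1 was lost without replicate 3 of erf13-3 (adjusted p = 0.063) or of 35S:ERF13:MYC (0.075).

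CYP705A12 lies on chromosome 5 directly beside CYP71A16, which was left out, in the cluster of the marneral synthase MRN1. The other 6 tested genes of the triterpene list did not follow 1 pattern. In erf13-3, 1 was called higher and 1 lower (edgeR), against 13.6% and 13.7% of all genes tested. In 35S:ERF13:MYC none was called higher and 5 were called lower, against 13.8% and 17.7% of all genes. The thalianol hydroxylase CYP708A2 averaged 130 ± 9.7 FPKM in erf13-3 and 233 ± 17 FPKM in 35S:ERF13:MYC, against 298 ± 38.2 FPKM in WT (SD, n = 3 each). Its next enzyme CYP705A5 averaged 445 ± 77.3 FPKM in erf13-3 and 138 ± 2.39 FPKM in 35S:ERF13:MYC, against 510 ± 109 FPKM in WT. The order of the lines was thus opposite for these neighbours of THAS1. CYP705A4 and CYP96A4, which are not on the list, had lower WT means, of 10 and 1.12 FPKM. Neither met the conditions without WT replicate 3. Unlike THAS1 and CYP705A12, CYP705A4 was lower in erf13-3 than in 35S:ERF13:MYC (edgeR log2 fold change -0.90, SE 0.27, adjusted p = 0.02). That call was lost without replicate 1 of erf13-3 (adjusted p = 0.07) or of 35S:ERF13:MYC (0.053), among other settings.

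Cell wall and secreted proteins made up 19 of the genes, at a median of 29.1% of WT in erf13-3 and 34.6% in 35S:ERF13:MYC. The lipid-transfer-type protein AT3G53980 was the most abundant of all 124 genes, with 316, 301 and 347 FPKM in erf13-3 and 332, 303 and 362 FPKM in 35S:ERF13:MYC, against 910.4, 936 and 923 FPKM in WT. Its WT libraries were close to each other, and the lines overlapped throughout. The related gene AT2G37870 had 28.7, 29.0 and 37.6 FPKM in erf13-3 and 61.0, 55.1 and 57.8 FPKM in 35S:ERF13:MYC, against 106, 115 and 157 FPKM in WT. The chitinase-type gene AT2G43590 had 18.1, 18.6 and 23.0 FPKM in erf13-3 and 28.7, 29.0 and 32.1 FPKM in 35S:ERF13:MYC, against 85.2, 105 and 97.8 FPKM in WT. Both of these were lower in erf13-3 than in 35S:ERF13:MYC, with edgeR adjusted p of 0.0021 and 0.003 and log2 fold changes of -0.89 and -0.61.

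EXLB1, a protein related to the expansins that loosen cell walls, had 4.53, 3.39 and 4.46 FPKM in erf13-3 and 13.5, 13.1 and 14.7 FPKM in 35S:ERF13:MYC, against 28.2, 21.9 and 36.0 FPKM in WT. It was lower in erf13-3 with an edgeR log2 fold change of -1.76 (adjusted p = 4.1e-05, SE 0.22), and without WT replicate 3 it stood at 0.55 of WT in 35S:ERF13:MYC. The galactosidase BGAL7 had 0.18, 0.29 and 0.26 FPKM in erf13-3 and 0.44 FPKM in each 35S:ERF13:MYC library, against 4.29, 4.69 and 2.65 FPKM in WT. It was among the genes most reduced in both lines, as was the mannose-binding lectin family gene AT5G28520. AT5G28520 had 0.78, 0.81 and 1.05 FPKM in erf13-3 and 1.81, 1.40 and 1.85 FPKM in 35S:ERF13:MYC, against 10.49, 10.05 and 5.74 FPKM in WT. The protease inhibitor UPI, known from fungal infection, had 23.3, 19.7 and 27.6 FPKM in erf13-3 and 27.2, 28.6 and 37.2 FPKM in 35S:ERF13:MYC, against 85.1, 78.9 and 80.2 FPKM in WT. Class III peroxidases, enzymes that oxidise wall phenolics, contributed 3 of 65 genes. AT5G15180 had 18.2, 17.4 and 23.9 FPKM in erf13-3 and 15.9, 17.9 and 24.2 FPKM in 35S:ERF13:MYC, against 54.5, 58.9 and 53.9 FPKM in WT. AT5G47000 had 1.72, 1.01 and 1.23 FPKM in erf13-3 and 2.08, 2.15 and 2.56 FPKM in 35S:ERF13:MYC, against 4.98, 7.31 and 11.1 FPKM in WT. PRX52 was carried by WT replicate 3, with 1.20, 0.94 and 0.70 FPKM in erf13-3 and 0.44, 0.38 and 0.13 FPKM in 35S:ERF13:MYC, against 1.69, 1.44 and 6.08 FPKM in WT.

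Of the 11 signalling genes, CIPK1, a kinase bound by calcium sensors of the CBL family, had the highest WT mean. CIPK1 had 19.97, 18.96 and 18.94 FPKM in erf13-3 and 18.85, 20.02 and 20.41 FPKM in 35S:ERF13:MYC, against 42.4, 47.6 and 31.3 FPKM in WT. CBL8, a calcium sensor of that family, had 1.07, 0.77 and 0.78 FPKM in erf13-3 and 3.15, 1.69 and 1.85 FPKM in 35S:ERF13:MYC, against 7.62, 7.83 and 5.71 FPKM in WT. The lines overlapped for CIPK1, and CBL8 was lower in erf13-3 than in 35S:ERF13:MYC (edgeR log2 fold change -1.39, SE 0.33, adjusted p = 0.0051). E12A11, a phosphatidylethanolamine-binding protein related to the flowering regulators FT and TFL1, had 4.69, 3.53 and 3.38 FPKM in erf13-3 and 8.62, 7.11 and 7.67 FPKM in 35S:ERF13:MYC, against 16.3, 19.3 and 19.3 FPKM in WT (log2 fold change between the lines -1.04, SE 0.16, edgeR adjusted p = 0.0002). The wall-associated kinase WAKL2 went the other way, with 2.33, 2.41 and 1.86 FPKM in erf13-3 and 0.73, 1.01 and 1.20 FPKM in 35S:ERF13:MYC, against 3.98, 4.98 and 4.59 FPKM in WT (log2 fold change between the lines 1.14, SE 0.20, edgeR adjusted p = 0.00059).

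Among other enzymes, the Rossmann-fold oxidoreductase AT1G64590 had 53.8, 58.4 and 66.9 FPKM in erf13-3 and 11.8, 8.48 and 8.40 FPKM in 35S:ERF13:MYC, against 107, 118 and 168 FPKM in WT. It was higher in erf13-3 by 2.62 on the log2 scale (SE 0.22, edgeR adjusted p = 1.8e-06), and without WT replicate 3 it stood at 0.532 of WT in erf13-3. The FAD-linked oxidase AT2G34810 had 0.56, 0.67 and 0.68 FPKM in erf13-3 and 2.73, 1.80 and 2.30 FPKM in 35S:ERF13:MYC, against 8.11, 7.13 and 9.36 FPKM in WT. It was lower in erf13-3, with an edgeR log2 fold change of -1.85 (adjusted p = 7.8e-05, SE 0.25). The malic enzyme NADP-ME1 had 4.54, 3.79 and 3.67 FPKM in erf13-3 and 6.76, 7.53 and 6.26 FPKM in 35S:ERF13:MYC, against 15.3, 15.9 and 16.6 FPKM in WT, and was also lower in erf13-3 (log2 fold change -0.76, SE 0.12, edgeR adjusted p = 0.00027). The lines did not overlap each other for any of these enzymes.

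AT2G04137, annotated as a phosphogluconate dehydrogenase, was listed at 0 in all libraries of both lines and had 15 counts over the WT libraries. Against a floor of 3 counts over a group, it was 4.95-fold higher in WT than in erf13-3 and 4.97-fold higher than in 35S:ERF13:MYC. These values leave out the error of the 15 WT counts and are not lower bounds. AT2G04137 overlaps bZIP48, another of the 124 genes, and AT1G63055 overlaps AT1G63057, so each pair may share reads. AT1G63055 had 0.27, 0.27 and 0.17 FPKM in erf13-3 and 0.20, 0.27 and 0.40 FPKM in 35S:ERF13:MYC, against 2.67, 2.84 and 2.03 FPKM in WT. AT1G63057 had 0.28, 0 and 0.86 FPKM in erf13-3 and 0.41, 0 and 0.14 FPKM in 35S:ERF13:MYC, against 5.0, 3.38 and 2.16 FPKM in WT. Neither product is characterised. Of the 124 genes, 26 (21%) overlap another annotated gene, compared with 33% of genes with a WT mean of at least 1 FPKM, and strand use in counting is not given in the sources used here.

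Among the 31 genes with another or an uncharacterised product, AT4G12555 was the most abundant. It had 130.3, 139 and 208 FPKM in erf13-3 and 205, 206 and 231 FPKM in 35S:ERF13:MYC, against 354, 439.8 and 494 FPKM in WT. AT5G20790 had 21.3, 23.0 and 17.8 FPKM in erf13-3 and 5.15, 3.81 and 2.75 FPKM in 35S:ERF13:MYC, against 33.1, 33.3 and 139.9 FPKM in WT. It did not meet the conditions without WT replicate 3, where it was at 0.624 of WT in erf13-3. DMP1, a small membrane protein linked to senescence, had 0.60, 0.30 and 0.50 FPKM in erf13-3 and 1.59, 1.61 and 2.29 FPKM in 35S:ERF13:MYC, against 6.34, 6.54 and 6.86 FPKM in WT. Its WT libraries were close together, and it was lower in erf13-3 than in 35S:ERF13:MYC (edgeR log2 fold change -1.97, SE 0.33, adjusted p = 0.00052). PP2-B5, a phloem-type lectin, had 0.56 FPKM in each erf13-3 library and 0.62, 0.31 and 0.37 FPKM in 35S:ERF13:MYC, against 2.15, 2.70 and 2.89 FPKM in WT.

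The genes lay on all 5 chromosomes, 41 on chromosome 1, 22 on chromosome 2, 24 on chromosome 3, 15 on chromosome 4 and 22 on chromosome 5. Within 3 annotated genes of each other, only the overlapping pairs AT1G63055 with AT1G63057 and bZIP48 with AT2G04137 were both among the 124. No gene of the fixed lists for suberin, early immunity, salicylate, iron uptake, jasmonate, hypoxia or wax was among them, but NHL10 of the early immune list met every condition and was left out by name, and the conditions were met by 0.711% of genes. Just inside the limit of 0.5, THAS1 stood at 49.98% of WT in erf13-3, AT4G12555 at 49.92% in 35S:ERF13:MYC and HB-12 at 49.31% in 35S:ERF13:MYC. Just outside it, AT2G48090 stood at 50.29% and ATPMEPCRD at 50.37% in erf13-3, and AT3G61113 at 50.45% in 35S:ERF13:MYC. The lowest WT means inside the limit of 1 FPKM were 1.04 for AT1G49900 and NCED9 and 1.05 for AT1G76210 and AT2G22750.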

How the data were processed

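For each of 9 root libraries the authors deposited a table with an expected count and an FPKM value per gene, per the file headers. Genes that a table did not list were set to 0. Between 88.7% and 89.9% of the expected counts above 0 were whole within 0.005. The authors also deposited, for each line against WT, a filtered table with mean FPKM, a log2 ratio and a score named Probability, per the file headers, of which only the listing and direction of genes were used. The read aligner, the program that counted, the strand setting, the annotation and its build, and the handling of reads shared by paralogs were not given in the sources used here. The authors' listed positions lay within the RefSeq TAIR10.1 gene spans for 2547 of 2547 genes, 1787 of them identical, and all 124 genes matched by locus. Upstream windows are 250 bases before the RefSeq gene start.

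Genes were chosen on FPKM as deposited. Expected counts were rounded, filtered with filterByExpr (minimum count 10) and scaled by TMM, and 1 quasi-likelihood model with a mean per genotype was fitted to all 9 libraries in edgeR 4.0.16 (R 4.3.3). It had 6 residual degrees of freedom. P-values were adjusted by Benjamini-Hochberg over 19714 genes, with a threshold of 0.05. The model was also run on simulated counts with known fold changes in few genes and the same spread for all genes. That setting is simpler than these data, so no conclusion is drawn from it. Replicate libraries differed by more than sampling noise (chi-square over its degrees of freedom at least 2.31). Depth was within 12147128 to 12324144 expected counts per library. Alternatives used RLE factors, DESeq2 1.42.0, limma 3.58.1 on log2(FPKM + 1) and log2(FPKM + 0.1), no filter on low counts, the lines alone, a replicate block, each library left out, and other limits for the choice of genes. Same-numbered libraries of erf13-3 and WT deviated from their genotype means together (correlations of 0.21, 0.26 and 0.50). The other genotype pairs did not do so throughout (-0.06, 0.18 and -0.15 for erf13-3 with 35S:ERF13:MYC, and -0.30, 0.10 and -0.23 for 35S:ERF13:MYC with WT). Over all genotype pairs, the best match of a library had its own number in 6 of 18 cases. No label gives a pairing, and whether the numbers pair libraries was not settled. Intervals reflect counting error only, and floors leave out the error of the WT counts set against them.

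The genes, the role groups and the lists were chosen with earlier results of these data known. The genes named are the 12 with the highest WT mean, the 12 most reduced in both lines, the 6 with the smallest p in each direction between the lines, those on the fixed lists, those nearest the limits of the choice, and overlapping neighbours. The first 3 of these sets passed over genes with no symbol whose RefSeq product is uncharacterised. SPX3, PS2, SRG3, XERO1, LEA7 and AT3G02480 are shown with their sequences for the motifs in their windows. Further genes (PAP3, AT3G05640, AT2G21820, PDE337, SWEET4, SWEET12, MOT1, CIPK1, CBL8, AT5G20790, DMP1 and the list genes outside the 124) were named after their values were seen.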

Additional observations from a re-analysis of the deposited data

How the results depend on the processing

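The choice of genes gave 124 genes, 161 on TMM-scaled FPKM, 127 on TPM, 100 with a WT mean of at least 2 FPKM, 135 with no condition on overlap, 65 with a ratio of at most 0.4, and 105 to 142 with a library left out. Between the lines, the genes called higher in erf13-3 numbered 15 to 29 with a library left out and those called lower 20 to 31, with the extremes without erf13-3 replicate 3 (15) and WT replicate 3 (29 and 31). Over all genes the ranges were 3470 to 4768 and 2611 to 3924. Whether replicate numbers pair libraries was not settled, and the replicate block moved no list count against WT by over 1.5 times. Between the lines, the calls with the block were 23 and 29, and over all genes 4255 and 3753. Of the 48 genes called between the lines, 31 kept their call in every setting run, and no direction reversed. The calls of UPI, AT5G28520, GLYI7, XERO1, AT2G41190, AT1G65845, CYP705A4, WRKY75, MYB108, AT2G31945, AT4G33666, THAS1, AT1G33100, UMAMIT20, SOM, AT3G19320 and AT5G20790 were lost in at least 1 setting, mostly with a library left out. DESeq2 lost MYB108 and XERO1, limma lost AT2G41190 and AT5G28520, and the fit without WT lost UPI.

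For the lists against WT, limma on log2(FPKM + 1), run on genes whose mean reached 1 FPKM, called 9 aquaporins higher in erf13-3, 7 abscisic acid genes lower in 35S:ERF13:MYC, 1 suberin gene higher in erf13-3, 2 salicylate genes higher in 35S:ERF13:MYC, 2 phosphate genes higher and 5 lower in erf13-3, 5 jasmonate genes higher and 1 lower in erf13-3, and 3 hypoxia genes lower in 35S:ERF13:MYC. DESeq2 called 0 phosphate genes higher and 5 lower in erf13-3. For hypoxia genes higher in 35S:ERF13:MYC it called 0, as did RLE factors and no filter. The cause of these shifts was not tested. With a library left out, counts ranged over 3 to 9 for aquaporins higher in erf13-3, 0 to 3 for phosphate genes higher and 4 to 9 lower in erf13-3, 9 to 14 lower in 35S:ERF13:MYC, 0 to 1 for suberin genes higher in erf13-3, 3 to 6 for immune genes lower in 35S:ERF13:MYC, 1 to 2 for salicylate genes higher in 35S:ERF13:MYC, 1 to 2 for jasmonate genes lower in erf13-3 and 1 to 3 higher in 35S:ERF13:MYC, 0 to 1 for hypoxia genes higher and 2 to 5 lower in 35S:ERF13:MYC, and 1 to 4 for wax genes higher in erf13-3 and 2 to 5 lower in 35S:ERF13:MYC. Depth limits weakly expressed genes, and 8 of the 124 could not be tested, with WT means of 1.05 FPKM (AT2G22750) to 2.5 FPKM (AT2G25215).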
